A study of Sus scrofa with 23 samples.

Results

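Signals of 6 genes of antioxidant defence were followed in pig offspring from before birth to 188 days of age: superoxide dismutase SOD2, the glutathione peroxidases GPX1, GPX2 and GPX3, the glutathione synthesis subunit GCLM and the metallothionein MT3. They were taken as every probe set of the porcine Affymetrix array whose single gene symbol in the platform annotation is one of these names, which gave 7 of the 23999 probe sets tested, for 6 of 6765 named genes. GCLM had 2 probe sets and each of the other genes had 1. The 23 samples came from offspring of German Landrace gilts kept on a low-protein diet in pregnancy, and every group shared that diet, so stages can be compared here but diets cannot. The groups were 94 days post conception (dpc, before birth, n = 5) and 1, 28 and 188 days post natum (dpn, n = 6 each), with the abbreviations read in their usual sense. Each stage drew on the litters of 3 gilts, and since no label gives the dam, some animals of a stage had the same mother without its being known which. In the tests every animal counts as independent. The p-values thus set a difference against the spread between these samples only, and shared dams can make them too small.

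Superoxide is formed where electrons leak from the mitochondrial respiratory chain, and SOD2, the manganese enzyme of the mitochondrial matrix, turns it into hydrogen peroxide. Glutathione peroxidases then reduce peroxides with glutathione as the electron donor, and most of them, GPX1, GPX2 and GPX3 included, carry selenocysteine in the active site. GCLM is the modifier subunit of glutamate-cysteine ligase, the enzyme of the rate-limiting step of glutathione synthesis, and metallothioneins are small cysteine-rich proteins that bind zinc and copper. Skeletal muscle is rich in mitochondria and meets a large change in oxygen supply and workload at birth.

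The label of every sample reads liver, whereas muscle is the tissue in the series title. Of 12 skeletal muscle markers 10 were measured, and their median signal lay at percentile 99.6 to 99.9 of all probe sets in every array. The 11 measured hepatocyte markers of 12 lay at percentile 23.3 to 87.0, and signals of albumin (ALB) ran from 34.5 to 9137. The markers thus go against the liver label in all 4 stages. In bulk tissue, fewer cells of a type and less RNA per cell cannot be told apart. Replicate numbers follow the order of deposition and only name a sample. At 1 dpn, replicates 2, 4 and 5 had GAPDH control ratios of 5′ to 3′ signal between 0.0868 and 0.148, and the remaining 20 samples lay between 1.09 and 1.29, a sign of RNA or labelling quality. For β-actin this ratio ranged over 0.82 to 1.1 in fetal samples, 0.817 to 1.21 at 1 dpn, 1.32 to 1.61 at 28 dpn and 1.29 to 1.42 at 188 dpn with the control probe sets used here. A second set of β-actin controls did not divide the stages in this way, with ratios of 0.0988 to 0.28 in fetal samples, 0.0319 to 0.135 at 1 dpn, 0.0822 to 0.128 at 28 dpn and 0.167 to 0.207 at 188 dpn, and its lowest 3 values were those of the same replicates 2, 4 and 5 of 1 dpn. For the genes named, the value without samples that stand apart is given where leaving them out ended a call or moved a called change by over 1.5 times. Depth has no counterpart on arrays, and the number of animals limits the precision.

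Between 94 dpc and 1 dpn, 5 of the 6 genes rose (GPX1, GPX2, GPX3, SOD2 and the brighter GCLM probe set) and none fell. The log2 changes were 1.1 to 2.30, or 2.14- to 4.92-fold, and 4 of the 5 had no overlap between the stages. Over all probe sets 8.08% rose, 17.9% fell and 25.9% were called in either direction, and 4.2% were higher and 9.66% lower at 1 dpn without overlap of samples. By gene, 13.7% of the 6765 named genes rose and 19.4% fell. The 6 genes were chosen with earlier results of these data known. Setting their counts beside such shares describes them and is not a test. A probe set is said to rise or fall where limma's moderated test with Benjamini-Hochberg adjustment over 23999 probe sets gave an adjusted p under 0.05. Changes are differences of mean log2(signal + 16) ± SE, and folds are on that scale, which understates changes of dim probe sets. From 1 to 28 dpn GPX1 fell and SOD2 rose, while 10.1% of all probe sets rose, 7.03% fell and 17.2% were called. Only the samples of GPX1 did not overlap there, against 4.14% of all probe sets higher and 2.7% lower without overlap. From 28 to 188 dpn GPX3 and GCLM rose and GPX2 fell, while 4.66% of all probe sets rose, 9.15% fell and 13.8% were called. GPX3 alone of the members was free of overlap there, against 4.45% of all probe sets higher and 6.41% lower.

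Across wider spans, 4 genes were higher and MT3 was lower at 28 dpn than at 94 dpc, where 8.87% of all probe sets were higher, 14.7% lower and 23.6% called. GPX1 and SOD2 (higher) and MT3 (lower) showed no overlap, against 7.83% and 12.8% of all probe sets. Between 1 and 188 dpn GPX3 and SOD2 were higher at the later stage and GPX1, GPX2 and MT3 were lower, where 13.6% of all probe sets were higher, 15.6% lower and 29.2% called. Samples of GPX3 and SOD2 (higher) and GPX2 (lower) did not overlap, against 6.78% and 6.51%. Between 94 dpc and 188 dpn GPX1, GPX3, SOD2 and GCLM were higher and MT3 was lower, where 13.3% of all probe sets were higher, 23.4% lower and 36.7% called. GPX3, SOD2, GCLM (higher) and MT3 (lower) showed no overlap, against 10.7% and 18.5%. The 6 comparisons share samples, so their results are not independent of each other. Scaling bears on such shares: of the probe sets called between 94 dpc and 1 dpn 31.2% were higher at 1 dpn with the values as deposited, 47.3% with quantile-normalized values and 59.4% once the median of each array was set to the same value (centring). For 188 against 28 dpn these shares were 33.7%, 42.5% and 46.6%, for 28 dpn against 94 dpc 37.6%, 50.2% and 59.1%, and for 188 dpn against 94 dpc 36.3%, 48.8% and 56.9%. The median change of all probe sets went from -0.108, -0.097 and -0.077 as deposited to 0.165, 0.100 and 0.217 after centring for 1, 28 and 188 dpn against 94 dpc. No called change of a member turned its sign under either scaling.

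**Figure D1:**
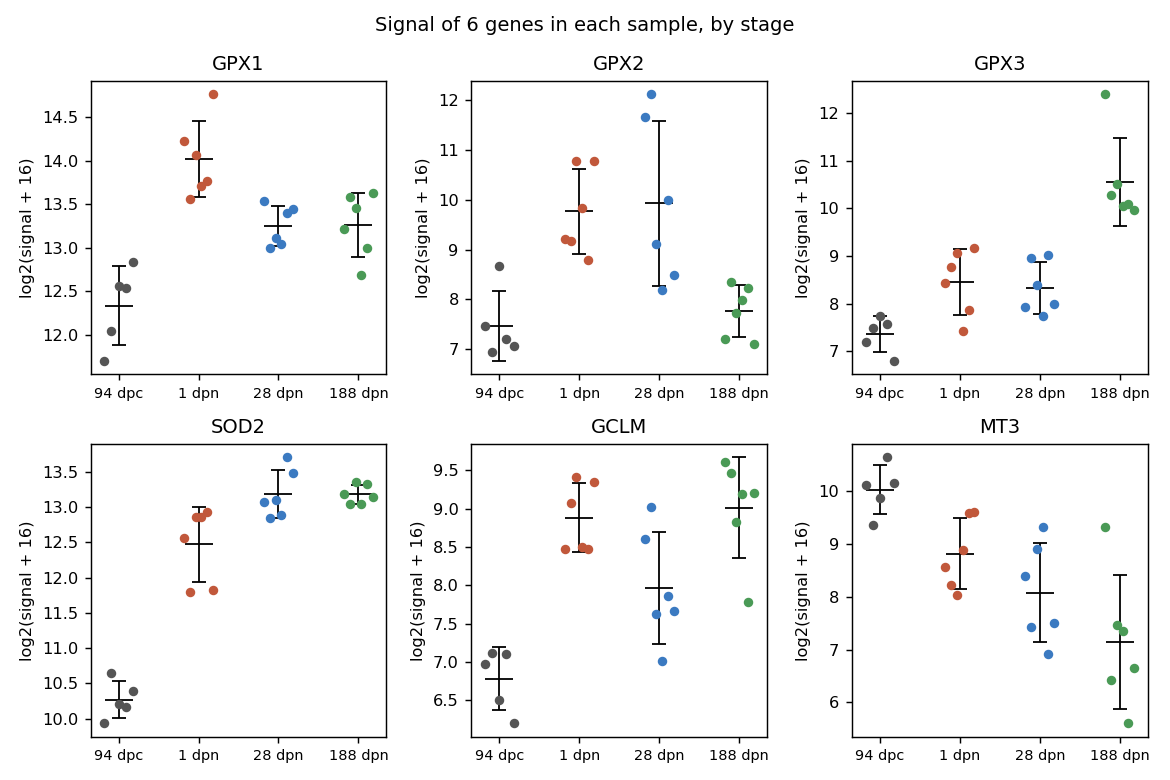
Signal of each gene in each of the 23 samples (points, log2(signal + 16) on the y axis) at 94 dpc, 1 dpn, 28 dpn and 188 dpn, with the mean and SD of each stage as bars; GCLM is its brighter probe set. SOD2 rises in steps to a plateau, GPX1 is highest at 1 dpn, GPX2 is high at 1 and 28 dpn, GPX3 is highest at 188 dpn with 1 sample at 5368 on the linear scale, and MT3 is highest at 94 dpc.

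SOD2, which removes superoxide inside mitochondria (NCBI Gene 100154319), had signals of 958, 1577, 1167, 1140 and 1322 in the 5 fetal samples. At 1 dpn they ran from 3520 to 7782 with a median of 6700, at 28 dpn from 7355 to 13421 with a median of 8668, and at 188 dpn from 8416 to 10438 with a median of 9171. Every sample taken after birth lay above every fetal sample, and the samples of 188 dpn also lay above all of those of 1 dpn. The stage means were 1230 ± 232 (SD, n = 5), 5960 ± 1940 (n = 6), 9520 ± 2410 (n = 6) and 9320 ± 868 (n = 6). SOD2 rose by 2.20 ± 0.23 on the log2 scale from 94 dpc to 1 dpn, a 4.6-fold change (adjusted p = 2.6e-07). A further rise of 0.71 ± 0.21 (1.64-fold, adjusted p = 0.023) followed to 28 dpn. That smaller step was no longer called without 1 dpn replicate 2 (0.58, adjusted p = 0.061), 1 dpn replicate 6 (0.59, 0.06), 28 dpn replicate 5 (0.61, 0.064) or 28 dpn replicate 6 (0.65, 0.057), after centring (0.64, 0.051) and with only these 2 stages fitted (adjusted p = 0.1). Between 28 and 188 dpn the difference was 0.00 with a 95% interval of -0.44 to 0.44. Against 94 dpc the difference at 28 dpn and at 188 dpn was 2.92 ± 0.23 in both cases (7.55-fold, adjusted p = 3.9e-09 and 6.4e-10). Relative to 1 dpn, SOD2 at 188 dpn was higher by 0.71 ± 0.21 (adjusted p = 0.014). Within a stage the spread narrowed from a ratio of 2.21 between the highest and lowest sample at 1 dpn to 1.24 at 188 dpn. The summed signal of the skeletal muscle markers also stood higher with age, at 296000 to 347000 at 94 dpc, 359000 to 630000 at 1 dpn, 456000 to 776000 at 28 dpn and 645000 to 860000 at 188 dpn, and its part in the result was not tested.

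GPX1, the abundant intracellular glutathione peroxidase that reduces hydrogen peroxide (NCBI Gene 397403), gave 3311, 4201, 6040, 5957 and 7264 at 94 dpc. The signal reached 12060 to 27684 at 1 dpn, with a median of 15508. At 28 dpn it was 8150 to 11799 (median 9799) and at 188 dpn 6545 to 12664 (median 10355). All samples of 1 dpn exceeded all those of 94 dpc and of 28 dpn, whereas the ranges at 28 and 188 dpn overlapped almost completely. Means were 5350 ± 1580 (SD, n = 5), 17200 ± 5760 (n = 6), 9840 ± 1570 (n = 6) and 10100 ± 2430 (n = 6). GPX1 rose by 1.68 ± 0.24 (3.2-fold, adjusted p = 1.6e-05) after birth and fell by 0.76 ± 0.23 (adjusted p = 0.023) to 28 dpn. The fall was not called without 1 dpn replicate 6 (-0.61, adjusted p = 0.059) or 28 dpn replicate 2 (-0.71, 0.05). From 28 to 188 dpn the difference was 0.01, with an interval of -0.46 to 0.48. GPX1 thus stood above its fetal level by 0.92 ± 0.24 at 28 dpn (adjusted p = 0.0069) and by 0.92 ± 0.24 at 188 dpn (adjusted p = 0.0035), and at 188 dpn below 1 dpn (log2 difference -0.75 ± 0.23, adjusted p = 0.014). After quantile normalization the comparisons with 94 dpc missed the threshold at 28 dpn (0.60, adjusted p = 0.071) and at 188 dpn (0.54, 0.077). The 2 highest signals at 1 dpn, 27684 in replicate 6 and 19202 in replicate 1, came from the samples with the highest summed neutrophil markers. Of 9 such markers 5 were measured, with sums of 2830 and 2010 there against 232 to 520 in the other samples of 1 dpn. In fetal samples the sums were 193 to 395, in those of 28 dpn 176 to 345 and in those of 188 dpn 134 to 369, and the part of these cells in the GPX1 signal was not tested. Replicate 3 of 1 dpn came next in GPX1 (17065) with a neutrophil sum of 287. The lowest GPX1 signals of 1 dpn (12060, 13356 and 13951) were those of replicates 2, 4 and 5, the samples of low GAPDH ratio.

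GPX3 is the secreted glutathione peroxidase of blood plasma, known to be made largely by the kidney. Its probe set (NCBI Gene 396598) read 130, 163, 199, 174 and 95.6 at 94 dpc. At 1 dpn the signals were 156 to 559 (median 377) and at 28 dpn 196 to 502 (median 279), so that both stages overlapped each other and, at their lower ends, the fetal samples. At 188 dpn replicate 1 read 5368 and the other 5 read 1226, 1443, 1038, 1068 and 985, all above every younger sample. Stage means were 152 ± 40.1 (SD, n = 5), 368 ± 163 (n = 6), 327 ± 133 (n = 6) and 1850 ± 1730 (n = 6). GPX3 rose by 2.21 ± 0.37 from 28 to 188 dpn, or 4.64-fold (adjusted p = 2.6e-04). Without 188 dpn replicate 1 the rise was 1.84 ± 0.30 (adjusted p = 2.7e-04). Against 94 dpc the level at 188 dpn was higher by 3.19 ± 0.39 (9.11-fold, adjusted p = 6.1e-07), or 2.82 without that sample, and against 1 dpn by 2.09 ± 0.37 (adjusted p = 1.4e-04), or 1.72. The rise at birth was 1.1 ± 0.39 (2.14-fold, adjusted p = 0.041) and lay close to the threshold. It was lost when any of 94 dpc replicates 1, 2, 4 and 5 or 1 dpn replicates 1, 2, 3 and 6 was left out (log2 change 0.96 to 1.15, adjusted p = 0.054 to 0.1) and with array weights (1.02, 0.074), while without the 3 samples of low GAPDH ratio it was 1.54 (adjusted p = 0.015). Levels at 28 and 1 dpn differed by -0.12 (interval -0.89 to 0.65), and those at 28 dpn and 94 dpc by 0.97 ± 0.39 (adjusted p = 0.075). The latter was called after quantile normalization (1.15, adjusted p = 0.031), after centring (1.17, 0.032) and without 188 dpn replicate 1 (0.97, 0.022).

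The 188 dpn sample with the GPX3 signal of 5368 also stood apart in genes of the kidney tubule. LRP2, the endocytic receptor of the proximal tubule, read 1041 there and 9.28 to 183 in the other 22 samples. SLC22A6, the organic anion transporter of the same cells, read 203, no higher than the 203 of 1 dpn replicate 1. These were the 2 measured of 5 kidney markers, and none was at 0. Their sums were 75.1 to 243 at 94 dpc, 123 to 325 at 1 dpn, 152 to 274 at 28 dpn and 87.6 to 1240 at 188 dpn. Chosen after their values were seen, the kidney genes MIOX (3122), PDZK1 (1148) and TINAG (928) were likewise high in this sample, against 11.1 to 567, 5.49 to 139 and 3.79 to 190 in the other 22. The heme oxygenase gene HMOX1 read 2339 in it and 177 to 712 elsewhere. Without this sample the GPX3 rise remained without overlap and past the threshold. Replicates 2 and 3 of 188 dpn had the next highest GPX3 signals of the stage (1226 and 1443). They also came next in LRP2 (137 and 183), MIOX (307 and 567), PDZK1 (134 and 139) and TINAG (147 and 190). They did not in SLC22A6 (80.4 and 111, against 159 in replicate 4). The part of kidney RNA in the GPX3 rise was not tested.

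**Figure D2:**
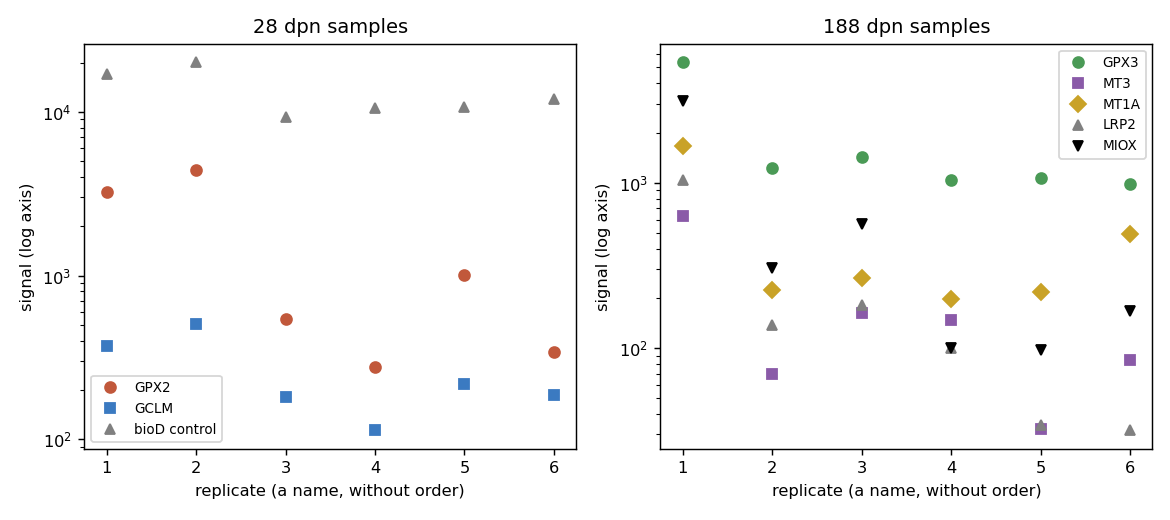
Signals in the 6 samples of 28 dpn (left: GPX2, GCLM and the hybridisation control bioD) and of 188 dpn (right: GPX3, MT3, the metallothionein MT1A and the kidney genes LRP2 and MIOX), on log y axes, against the replicate number, which is a name without order. GPX2, GCLM and bioD are highest in replicates 1 and 2 of 28 dpn, and all 5 genes on the right are highest in replicate 1 of 188 dpn.

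GPX2, a glutathione peroxidase best known from the epithelium of the gut (NCBI Gene 767625), was low before birth, with signals of 161, 107, 390, 131 and 117. At 1 dpn the values were 429 to 1745 with a median of 739. At 28 dpn they spread over 16.0-fold, from 274 to 4391 with a median of 777, and at 188 dpn they returned to 121 to 307 with a median of 218. Samples of 1 dpn did not overlap with those of 94 dpc or 188 dpn, while those of 28 dpn overlapped with every other stage. Means were 181 ± 118 (SD, n = 5), 993 ± 601 (n = 6), 1630 ± 1740 (n = 6) and 213 ± 77.3 (n = 6). GPX2 rose by 2.30 ± 0.58 after birth (4.92-fold, adjusted p = 0.0047) and was still higher by 2.46 ± 0.58 at 28 dpn than at 94 dpc (5.5-fold, adjusted p = 0.0032). A change from 1 to 28 dpn was not detectable (0.16 ± 0.56, interval -0.99 to 1.31), and its sign turned when 28 dpn replicate 1 (-0.19) or replicate 2 (-0.28) or 1 dpn replicate 5 (-0.03) was left out. GPX2 fell by 2.16 ± 0.56 from 28 to 188 dpn (adjusted p = 0.01) and lay lower at 188 than at 1 dpn (-2.0 ± 0.56, adjusted p = 0.0081). At 188 dpn it did not differ detectably from 94 dpc (0.30, interval -0.90 to 1.51).

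The wide spread of GPX2 at 28 dpn came from replicates 1 and 2, at 3219 and 4391, against 274 to 1011 in the other 4. Both samples also had the highest GCLM signals of that stage (372 and 502) and the highest signals of bioD, a control transcript added before hybridisation (17100 and 20100, against 9260 to 12000). Replicate 1 held hepatocyte marker RNA, with a summed signal of 19500 against 2170 to 3440 in the other samples of the stage and an ALB signal of 6400, but ALB in replicate 2 was 173, within the 34.5 to 174 of the others. The 5 measured of 6 intestinal epithelium markers summed to 126 to 316 at 94 dpc, 169 to 398 at 1 dpn, 152 to 343 at 28 dpn and 247 to 506 at 188 dpn, with none at 0. With both samples left out, the fall of GPX2 from 28 to 188 dpn was -1.18 and no longer called (adjusted p = 0.094). GPX2 at 28 dpn against 94 dpc was then 1.48, still called (adjusted p = 0.027). The same omission took GCLM at 28 dpn against 94 dpc to 0.76 (adjusted p = 0.12), and the GPX1 fall from 1 to 28 dpn to -0.77 (adjusted p = 0.058). The bioD control also differed between stages. Fetal samples read 6350 to 10000, those of 1 dpn 16500 to 27500 and those of 188 dpn 14900 to 17300. Both 28 dpn samples of high bioD lay within the range of 1 dpn and above every fetal sample. Replicate 2 (20100) also lay above every sample of 188 dpn, and replicate 1 (17100) lay within their range. Between 94 dpc and 1 dpn the bioD signals did not overlap. The part of these measures in the results, the changes at birth included, was not tested.

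GCLM, which lowers the feedback inhibition of glutamate-cysteine ligase by glutathione, had a brighter probe set (NCBI Gene 100153977) with signals of 110, 123, 74.2, 122 and 57.8 at 94 dpc. Signals were 338 to 668 (median 435) at 1 dpn, 113 to 502 (median 202) at 28 dpn and 205 to 768 (median 571) at 188 dpn. No sample of 1 or 188 dpn fell within the fetal range, but the lowest of 28 dpn did. Means were 97.4 ± 29.7 (SD, n = 5), 476 ± 155 (n = 6), 262 ± 146 (n = 6) and 541 ± 200 (n = 6). GCLM rose by 2.10 ± 0.34 after birth (4.29-fold, adjusted p = 7.3e-05). The level at 28 dpn was lower than at 1 dpn by a margin that missed the threshold (-0.92 ± 0.33, adjusted p = 0.055). That difference was called after quantile normalization (-0.95, adjusted p = 0.042) and centring (-1.0, 0.036), and without 1 dpn replicate 1 (-1.0, 0.043), 28 dpn replicate 1 (-1.05, 0.039), 28 dpn replicate 2 (-1.13, 0.018), 188 dpn replicate 5 (-0.92, 0.031) or both 28 dpn samples of high bioD (-1.34, 0.0075). A rise of 1.05 ± 0.33 to 188 dpn (2.07-fold, adjusted p = 0.032) was lost when any of 28 dpn replicates 3, 4, 5 and 6 or 188 dpn replicates 1, 2, 4 and 6 was left out (0.86 to 1.03, adjusted p = 0.057 to 0.091), and with only these 2 stages fitted (adjusted p = 0.07). Compared with 94 dpc, GCLM stood higher by 1.18 ± 0.34 at 28 dpn (adjusted p = 0.014) and by 2.23 ± 0.34 at 188 dpn (4.71-fold, adjusted p = 1.3e-05), and 188 dpn did not differ detectably from 1 dpn (0.13, interval -0.54 to 0.81). The dimmer GCLM probe set had stage means of 39.9, 53.6, 43.3 and 41.8 and its stage medians ranked at percentile 22.0 to 32.9 of the array. It was called in none of the 6 comparisons, so the 2 probe sets disagree. Its smallest unadjusted p was 0.61.

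MT3 is a metallothionein best known from the brain, and probes for one metallothionein can pick up others, since the family is closely alike in sequence. A probe set that lists MT3 beside MT1A was left out, and the one that names MT3 alone (NCBI Gene 397123) read 1094, 641, 927, 1592 and 1130 at 94 dpc. At 1 dpn the signals were 245 to 764 (median 412), at 28 dpn 105 to 628 (median 242) and at 188 dpn 32.4 to 629 (median 117). Fetal samples lay above all those of 28 and 188 dpn, and the lowest of them lay inside the range of 1 dpn. Means were 1080 ± 347 (SD, n = 5), 479 ± 230 (n = 6), 305 ± 205 (n = 6) and 188 ± 222 (n = 6). Each single step missed the threshold: -1.21 ± 0.51 from 94 dpc to 1 dpn (adjusted p = 0.086, interval -2.27 to -0.15), -0.74 ± 0.49 to 28 dpn (adjusted p = 0.34) and -0.94 ± 0.49 to 188 dpn (adjusted p = 0.24). Over the longer spans MT3 fell by 1.96 ± 0.51 from 94 dpc to 28 dpn (adjusted p = 0.007), by 1.68 ± 0.49 from 1 to 188 dpn (adjusted p = 0.011) and, with a log2 difference of -2.89 ± 0.51, from 94 dpc to 188 dpn (7.43-fold, adjusted p = 7.9e-05).

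The spread of MT3 at 188 dpn was 19.4-fold, with 629 in replicate 1 and 32.4 to 162 in the others. Without that sample, the one with high kidney tubule genes, the steps from 94 dpc to 1 dpn (-1.21, adjusted p = 0.037) and from 28 to 188 dpn (-1.37, 0.033) were called, and the difference between 94 dpc and 188 dpn was -3.33 (adjusted p = 2.7e-06). The first step was also called with only its 2 stages fitted (adjusted p = 0.023), with a pseudocount of 64 (-1.12, 0.037) and without the dimmer probe sets (adjusted p = 0.049). The difference between 1 and 188 dpn was -1.60 and not called (adjusted p = 0.074) once the 3 samples of low GAPDH ratio were dropped. MT1A, a relative with a probe set that names it alone, read 1678 in the same 188 dpn replicate 1, against 197 to 492 in the other 5. That probe set too can pick up other metallothioneins, so the signals of MT1A and MT3 need not be separate measures. Markers of fibroblasts, 7 measured of 9, also stood highest before birth, with sums of 35600 to 45300 at 94 dpc, 11100 to 29300 at 1 dpn, 13600 to 31900 at 28 dpn and 10700 to 16500 at 188 dpn. Neuron and Schwann cell markers, 5 of 9, summed to 2000 to 2970, 1070 to 2240, 1360 to 2550 and 929 to 1140 in the same order. The part of either cell type in the MT3 signal was not tested.

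**Figure D3:**
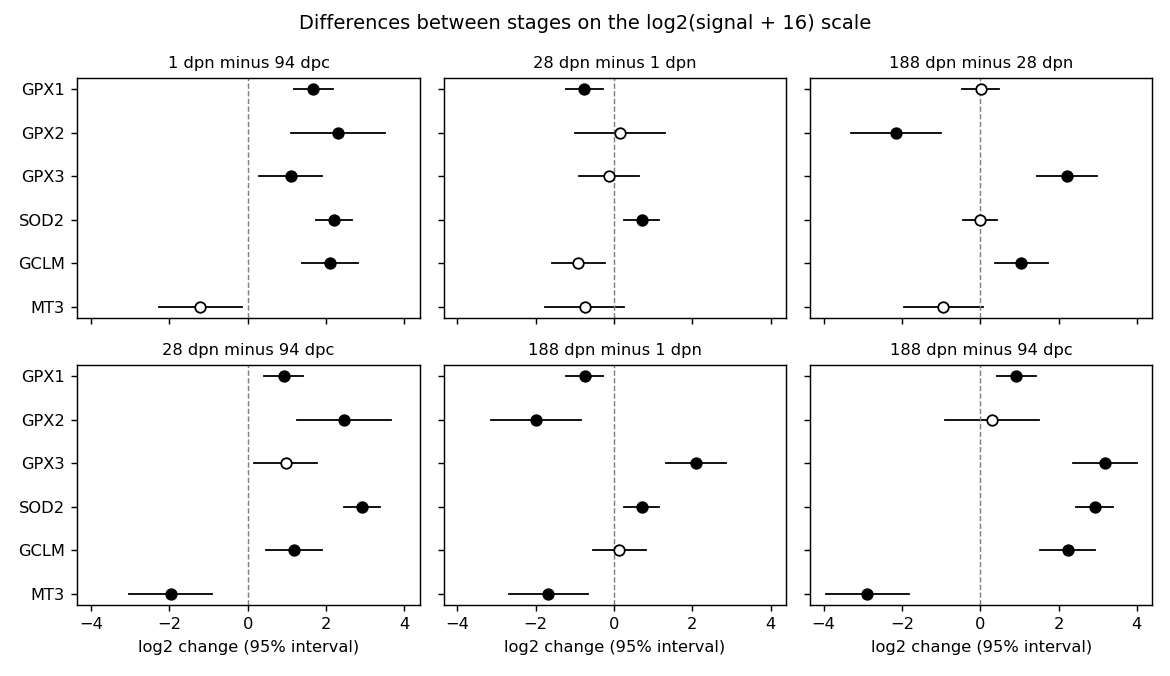
Difference of each of the 6 genes between stages (x axis, log2 change, first stage named minus second) with its 95% interval, in the 6 pairwise comparisons; filled points passed an adjusted p of 0.05 and open points did not. All genes but MT3 are to the right of 0 from 94 dpc to 1 dpn, and from 28 to 188 dpn GPX3 (2.21) and GPX2 (-2.16) lie on opposite sides.

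Leaving out the 3 samples of low GAPDH ratio left the changes at birth at 2.01 for GPX1, 2.79 for GPX2, 2.15 for SOD2 and 2.30 for GCLM, all called. From 1 to 28 dpn it gave -1.10 for GPX1 and 0.77 for SOD2 (adjusted p = 0.032), both called, and -1.12 for GCLM (adjusted p = 0.083).

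For each gene, the 3 named genes whose log2 signals followed it most closely over the 23 samples were found among 4962 genes above the median signal. Pearson's r is given as a description, since the samples share stages, dams and the scaling of arrays. The highest values for SOD2 were with VDAC1, the voltage-dependent channel of the outer mitochondrial membrane (0.945), with ATP2A1, the calcium pump of fast muscle (0.941), and with C1H6orf203 (0.940). GPX1 was followed by MINOS1, an organiser of mitochondrial cristae (0.856), and by NDUFB8 (0.826) and NDUFB2 (0.821), subunits of respiratory complex I. GPX3 had PDLIM3, an actinin-binding protein of muscle (0.894), PPP3CC, a calcineurin subunit (0.864), and CRY2, a clock gene (0.859). GCLM was matched by PPME1 (0.854) and by the proteasome subunits PSMD2 (0.830) and PSMD12 (0.829), and MT3 by ARL3 (0.860), STX6 (0.850) and the aldehyde reductase AKR1A1 (0.831). GPX2 had the lowest values, with HSDL2 (0.770), QPCTL (0.713) and SLC25A11 (0.703). Much of this likeness lay between stages: after subtracting the stage means, r was 0.17 for GPX1 with MINOS1, 0.45 for SOD2 with VDAC1 and 0.12 with ATP2A1, 0.47 for GPX3 with PDLIM3, 0.46 for GPX2 with HSDL2, 0.59 for GCLM with PPME1 and 0.68 for MT3 with ARL3.

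Other antioxidant genes and genes related to them were read from 10 lists with 96 measured genes, each represented by its brightest probe set. The lists also held sources of oxidants, metal transporters and deiodinases, so the totals are not those of antioxidant genes alone. All lists were chosen with earlier results of these data known. Of the 96 genes, 24 rose and 12 fell from 94 dpc to 1 dpn, where 13.7% of the 6765 named genes rose and 19.4% fell. From 1 to 28 dpn 13 rose and 13 fell (13.5% and 10.6% of all named genes), and from 28 to 188 dpn 6 rose and 14 fell (5.78% and 12.5%). Without the samples of low GAPDH ratio these counts were 31 and 10, 7 and 9, and 7 and 20. With centring they were 38 and 7, 8 and 15, and 7 and 11, and quantile normalization 23 and 11, 12 and 11, and 7 and 12. At 28 dpn 24 were higher and 14 lower than at 94 dpc (14.8% and 17.5% of all named genes), and at 188 dpn 14 were higher and 29 lower than at 1 dpn (16.7% and 21.3%). Over the whole span from 94 dpc to 188 dpn 31 were higher and 23 lower, against 19.5% and 27.4% of all named genes, and without 188 dpn replicate 1 these were 26 and 25. Centring gave 40 and 17 for that span, 31 and 10 for 28 dpn against 94 dpc and 14 and 28 for 188 against 1 dpn, and quantile normalization 27 and 21, 22 and 13, and 14 and 29. The shares of all named genes are for the values as deposited with all samples. They were not computed for the other scalings or with samples left out, so the counts there cannot be set against them. Scaling also moved the balance of all probe sets called, as given above.

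**Figure D4:**
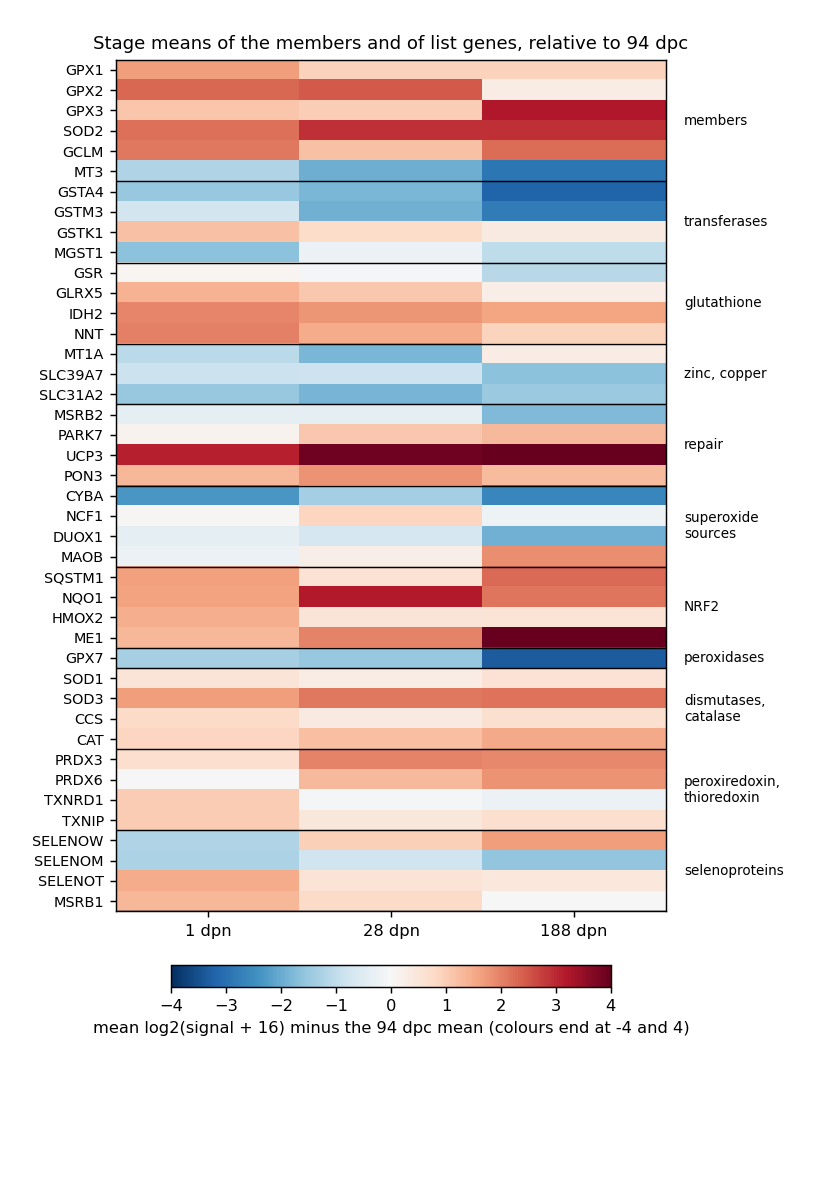
Mean log2(signal + 16) at 1, 28 and 188 dpn minus the mean at 94 dpc (colour scale, ending at -4 and 4) for the 6 genes and for up to 4 genes of each list, those with the largest called change between neighbouring stages. Red cells are above and blue cells below the 94 dpc mean; colours show size only and not whether a difference passed the test.

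Among the other dismutases and catalase, all 4 measured genes rose at birth, with a median log2 change of 0.81 against -0.06 for all named genes, and none passed the test from 1 to 28 or from 28 to 188 dpn. With only the 2 stages fitted, 2 of the 4 rose at birth. SOD3, the extracellular dismutase, went from 15.7 to 23.8 at 94 dpc to 46 to 436 at 1 dpn, with medians of 19.9 and 77.3 (1.67 ± 0.46, adjusted p = 0.0085). That rise of SOD3 was 1.27 without 1 dpn replicate 1 and 1.0 with a pseudocount of 64, called in both cases. Catalase (CAT), the peroxisomal enzyme that splits hydrogen peroxide, rose by 0.87 ± 0.20 at birth (adjusted p = 0.0023) and stood higher at 188 than at 1 dpn by 0.65 ± 0.19 (adjusted p = 0.011), with means of 3380, 6400, 7830 and 9810. SOD1, the cytosolic copper-zinc dismutase, rose by 0.50 ± 0.15 (adjusted p = 0.014), but by 0.21 after quantile normalization (adjusted p = 0.32). Its copper chaperone CCS rose by 0.75 ± 0.21 (adjusted p = 0.0091), and by 0.48 without the samples of low GAPDH ratio (adjusted p = 0.15). In that fit of 2 stages, neither SOD1 (adjusted p = 0.1) nor CCS (0.066) was called. Of the other glutathione peroxidases, 1 of 4 changed at birth: GPX7, the peroxidase of the endoplasmic reticulum, fell by 1.32 ± 0.18 (adjusted p = 1.1e-05). GPX7 fell again, by 1.82 ± 0.17, from 28 to 188 dpn (adjusted p = 5.5e-07), with means of 2630 ± 167 (SD, n = 5), 1050 ± 157 (n = 6), 916 ± 71.1 (n = 6) and 257 ± 82.3 (n = 6) over the 4 stages. GPX4, which reduces lipid peroxides in membranes, had means of 7920, 11100, 11300 and 11700, and the stage means of GPX5 and GPX6 reached at most 69.1 and 81.9; none of these 3 was called between neighbouring stages.

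In glutathione synthesis, recycling and breakdown, 5 of 14 genes rose and 1 fell at birth (median 0.47), 1 rose and 2 fell to 28 dpn, and 0 rose and 4 fell to 188 dpn. For 28 against 1 dpn the counts were 0 and 1 without the samples of low GAPDH ratio, and also without the 28 dpn samples of high bioD. GCLC, the catalytic partner of GCLM, had means of 92.3, 154, 198 and 194 and was not called between neighbouring stages. Against 94 dpc GCLC was higher by 1.02 ± 0.36 at 28 dpn (adjusted p = 0.043) and by 0.96 ± 0.36 at 188 dpn (adjusted p = 0.039). The mitochondrial sources of NADPH were among the genes that rose: NNT by 2.01 ± 0.17 (adjusted p = 2.2e-08) and IDH2 by 1.95 ± 0.20 (adjusted p = 2.1e-07), the latter from a mean of 9250 to 35700. Other sources of NADPH did not rise. IDH1 was the gene that fell at birth (-0.66 ± 0.21, adjusted p = 0.022), and 0 fell without the samples of low GAPDH ratio. PGD was not called at birth (-0.56 ± 0.21, adjusted p = 0.052) and was lower at 188 dpn than at 94 dpc (-1.73 ± 0.21, 5.7e-07). GLRX5, the mitochondrial glutaredoxin of iron-sulfur cluster assembly, rose by 1.40 ± 0.22 (adjusted p = 6.1e-05) and fell by 0.80 ± 0.21 from 28 to 188 dpn (adjusted p = 0.013). NNT fell by 0.59 ± 0.16 in that last interval (adjusted p = 0.015). An earlier fall of NNT from 1 to 28 dpn (-0.53 ± 0.16, adjusted p = 0.025) was lost without 1 dpn replicate 5 (-0.46, 0.061), without 28 dpn replicate 6 (-0.50, 0.057) and without the samples of low GAPDH ratio (-0.40, 0.18). Glutathione reductase (GSR), which regenerates glutathione, fell by 1.07 ± 0.26 from 28 to 188 dpn (adjusted p = 0.0068).

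The peroxiredoxin and thioredoxin list had 3 of 12 genes up and 1 down at birth, 3 up and 2 down to 28 dpn, and 0 up and 1 down to 188 dpn. The birth counts depended on scaling, at 8 and 0 after centring and 1 and 1 after quantile normalization, and were 6 and 1 with the samples of low GAPDH ratio left out. PRDX3, the peroxiredoxin of mitochondria, rose by 1.31 ± 0.25 (adjusted p = 6.1e-04) and PRDX6 by 1.33 ± 0.25 (adjusted p = 5.5e-04) from 1 to 28 dpn. The rise of PRDX3 was 0.67, still called (adjusted p = 0.021), when the samples of low GAPDH ratio were left out. Thioredoxin reductase TXNRD1 rose by 1.03 ± 0.25 at birth (adjusted p = 0.0039) and fell by 1.06 ± 0.24 to 28 dpn (adjusted p = 0.0034). Both steps of TXNRD1 missed the threshold without the samples of low GAPDH ratio (0.64, adjusted p = 0.073, and -0.67, 0.077). TXNIP, the inhibitor of thioredoxin, rose by 1.03 ± 0.20 at birth (adjusted p = 3.6e-04), or 0.48 after quantile normalization (adjusted p = 0.13). The later fall of TXNIP (-0.59 ± 0.19, adjusted p = 0.03) was lost without 1 dpn replicates 2, 4 or 5 or 28 dpn replicates 1, 3 or 4 (-0.57 to -0.51, adjusted p = 0.057 to 0.07) and was -0.34 without the samples of low GAPDH ratio (adjusted p = 0.33).

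NRF2 is a transcription factor that drives many antioxidant genes. The factor itself and its repressor KEAP1 were not among the 10 genes measured of this list. Measured were the regulator SQSTM1 and genes put on the list as targets, though HMOX2 is not an established target. Of these 10, 5 rose and 0 fell at birth, 2 rose and 4 fell to 28 dpn, and 2 rose and 2 fell to 188 dpn. In 28 against 1 dpn the counts were 1 and 1 without the samples of low GAPDH ratio. NQO1, a quinone reductase, rose by 1.61 ± 0.32 at birth (adjusted p = 6.4e-04) and by 1.56 ± 0.31 to 28 dpn (adjusted p = 0.001). A fall of NQO1 to 188 dpn (-1.03 ± 0.31, adjusted p = 0.026) was lost without 28 dpn replicate 4 (-0.83, 0.077), 28 dpn replicate 6 (-0.96, 0.058), 188 dpn replicate 5 (-0.96, 0.056) or both 28 dpn samples of high bioD (-1.07, 0.06). The autophagy receptor SQSTM1 rose by 1.63 ± 0.30 at birth (adjusted p = 2.6e-04), fell by 1.05 ± 0.29 to 28 dpn (adjusted p = 0.013) and rose by 1.67 ± 0.29 to 188 dpn (adjusted p = 3.0e-04). Leaving out the samples of low GAPDH ratio took the fall of SQSTM1 to -0.55 (adjusted p = 0.23); it was -0.98 without the 28 dpn samples of high bioD (0.057), and not called with only the 2 stages fitted (0.071). Malic enzyme ME1, another source of NADPH, rose by 1.34 ± 0.31 at birth (adjusted p = 0.0024) and by 2.13 ± 0.30 from 28 to 188 dpn (adjusted p = 3.7e-05). The other heme oxygenase of the list, HMOX1, was not called at birth (-0.74 ± 0.44, adjusted p = 0.24). Heme oxygenase HMOX2 rose by 1.46 ± 0.32 at birth (adjusted p = 0.0016). Its fall to 28 dpn (-0.93 ± 0.31, adjusted p = 0.038) was lost when 1 dpn replicate 2 or 6 or any 1 of the 6 samples of 28 dpn was left out (-0.96 to -0.62, adjusted p = 0.051 to 0.097), and was -0.65 with the samples of low GAPDH ratio left out (0.16).

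Among metallothioneins and the handling of zinc and copper, 0 of 9 genes rose and 2 fell at birth, none changed to 28 dpn, and 1 rose and 1 fell to 188 dpn. The zinc exporter of the endoplasmic reticulum SLC39A7 fell by 0.85 ± 0.19 at birth (adjusted p = 0.002) and by 0.82 ± 0.18 from 28 to 188 dpn (adjusted p = 0.0036), and the copper transporter SLC31A2 fell by 1.51 ± 0.21 at birth (adjusted p = 1.5e-05). MT1A rose by 2.12 ± 0.67 from 28 to 188 dpn (adjusted p = 0.036), opposite in sign to the difference of MT3 in that interval. The rise of MT1A was lost without 28 dpn replicates 3, 4, 5 or 6 or 188 dpn replicates 1 or 6 (1.69 to 2.16, adjusted p = 0.055 to 0.096), while without the 28 dpn samples of high bioD it was 3.0 (0.0039). Means of MT1A over the 4 stages were 400 ± 423 (SD, n = 5), 158 ± 80.4 (n = 6), 134 ± 191 (n = 6) and 513 ± 581 (n = 6), with single samples of 1148 at 94 dpc and 1678 at 188 dpn. The highest MT1A signals of 94 dpc (1148), 1 dpn (243) and 28 dpn (510) came from the samples with the highest summed hepatocyte markers of their stage (35100, 15200 and 19500). At 188 dpn the sample of 1678 had a sum of 6350, and the highest sum, 17400, went with 492. The part of hepatocyte RNA in the MT1A signal was not tested.

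Selenium is needed for GPX1, GPX2 and GPX3, and of 16 selenoprotein and selenoprotein synthesis genes 3 rose and 3 fell at birth, 1 rose and 3 fell to 28 dpn, and 0 rose and 1 fell to 188 dpn. With the samples of low GAPDH ratio left out, 1 rose and 0 fell to 28 dpn, so that none of the 3 falls kept its call. SELENOT, of the endoplasmic reticulum, rose by 1.49 ± 0.27 (adjusted p = 2.1e-04) and the methionine sulfoxide reductase MSRB1 by 1.32 ± 0.30 (adjusted p = 0.0021) at birth. SELENOW, the small selenoprotein abundant in muscle, fell by 1.20 ± 0.31 at birth (adjusted p = 0.0054) and rose by 2.14 ± 0.30 to 28 dpn (adjusted p = 2.6e-05). The fall of SELENOW was -0.68 (adjusted p = 0.16) when the samples of low GAPDH ratio were left out, and there the 28 dpn step of SELENOT, -0.94 ± 0.26 (adjusted p = 0.013), was -0.45 (0.27). With only the 2 stages fitted these 2 steps had adjusted p = 0.051 and 0.056. SELENOM fell by 1.26 ± 0.42 at birth (adjusted p = 0.03), a call lost without 94 dpc replicates 2, 3 or 5 or 1 dpn replicates 2 or 5 (-1.26 to -0.95, adjusted p = 0.051 to 0.078) and at -0.52 without the samples of low GAPDH ratio (0.41).

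Of 11 methionine sulfoxide reductases and other oxidative repair genes, 3 rose and 1 fell at birth, 4 rose and 1 fell to 28 dpn, and 2 rose and 1 fell to 188 dpn. The counts to 28 dpn were 2 and 0 with the samples of low GAPDH ratio left out. UCP3, the uncoupling protein of muscle mitochondria, rose by 3.11 ± 0.38 at birth (adjusted p = 2.7e-06), from a mean of 57 to 549, or by 2.36 with a pseudocount of 64. A further rise of UCP3 from 28 to 188 dpn (1.12 ± 0.36, adjusted p = 0.041) was lost when any 1 of the 28 dpn samples or 188 dpn replicates 1, 2, 5 or 6 was left out (0.93 to 1.17, adjusted p = 0.051 to 0.1). MSRB2, the mitochondrial methionine sulfoxide reductase, fell by 1.36 ± 0.26 from 28 to 188 dpn (adjusted p = 8.9e-04). PARK7, a redox-sensitive chaperone, rose by 0.96 ± 0.26 from 1 to 28 dpn (adjusted p = 0.012), but leaving out the samples of low GAPDH ratio reduced this to 0.23 (adjusted p = 0.44). PON3, a lactonase of the paraoxonase family, was called at birth with adjusted p = 0.049 (1.32 ± 0.49), and 12 of 32 alternative settings kept that call. The value of PON3 was 1.24 with the samples of low GAPDH ratio left out (adjusted p = 0.12) and 1.32 without 188 dpn replicate 1 (0.055). Its probe set was dim, with means of 17.5 at 94 dpc and 65 at 1 dpn. Without the 28 dpn samples of high bioD the later rise of UCP3 was 1.14 (adjusted p = 0.094). The same omission left the steps from 1 to 28 dpn of NNT at -0.53 (adjusted p = 0.074), TXNIP at -0.58 (0.083), HMOX2 at -0.91 (0.1) and SELENOT at -0.88 (0.056), none of them called.

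Of 8 glutathione S-transferases, which couple glutathione to reactive compounds, 1 rose and 2 fell at birth, 1 rose and 1 fell to 28 dpn, and 0 rose and 1 fell to 188 dpn. Centring changed the birth counts to 4 and 2, and leaving out the samples of low GAPDH ratio to 4 and 1. GSTA4, which acts on lipid aldehydes, fell by 1.53 ± 0.27 at birth (adjusted p = 1.6e-04) and by 1.37 ± 0.25 from 28 to 188 dpn (adjusted p = 6.6e-04). GSTM3 fell by 1.20 ± 0.30 from 1 to 28 dpn (adjusted p = 0.0071), and GSTK1, of mitochondria and peroxisomes, rose by 1.18 ± 0.27 at birth (adjusted p = 0.002). Microsomal MGST1 fell by 1.65 ± 0.51 at birth (adjusted p = 0.019), but by 0.80 without the samples of low GAPDH ratio (adjusted p = 0.34). A further list held 8 genes of NADPH oxidases and other sources of superoxide or hydrogen peroxide. Of these 8, 0 rose and 1 fell at birth, 1 rose and 0 fell to 28 dpn, and 1 rose and 2 fell to 188 dpn. CYBA, the membrane subunit shared by several NADPH oxidases, fell by 2.34 ± 0.46 at birth (adjusted p = 4.8e-04), from a mean of 1900 to 425. With the samples of low GAPDH ratio left out the fall of CYBA was -1.45 (adjusted p = 0.024). MAOB, the monoamine oxidase that forms hydrogen peroxide, rose by 1.64 ± 0.30 from 28 to 188 dpn (adjusted p = 5.1e-04). NCF1, a phagocyte oxidase subunit, fell by 1.05 ± 0.25 in that interval (adjusted p = 0.0059). The rise of NCF1 from 1 to 28 dpn (0.79 ± 0.25, adjusted p = 0.033) was lost without 1 dpn replicates 2, 3, 4 or 6 or 28 dpn replicates 2, 4 or 5 (0.62 to 0.78, adjusted p = 0.051 to 0.092) and with the samples of low GAPDH ratio left out (0.79, 0.12). The fall of DUOX1 to 188 dpn (-1.26 ± 0.39, adjusted p = 0.031) was lost without 28 dpn replicates 3, 4, 5 or 6 or 188 dpn replicates 1, 3 or 5 (-1.25 to -1.12, adjusted p = 0.051 to 0.078). Both genes were dim, against array medians of 121.3 to 169.4. DUOX1 had means of 57.4 at 28 dpn and 11.9 at 188 dpn, and NCF1 had 42.8, 92.4 and 32.1 at 1, 28 and 188 dpn. Of 10 macrophage markers 6 were measured, with sums of 4470 to 13000 at 28 dpn against 1230 to 4330 at 1 dpn and 1340 to 2890 at 188 dpn, and their part in the NCF1 changes was not tested.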

How the data were processed

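Affymetrix signals of 23 samples were analysed, grouped by stage from the labels. The authors deposited linear intensities, 1 per probe set and array, and the submitters' processing notes list GCOS 1.1.1. How signals were summarised and background-corrected is not stated there. The 2% trimmed mean was 500.1 to 500.2 on every array, as after scaling to one target. Probe sets were named through the platform annotation (10069 with 1 symbol, 198 with several), and 124 control probe sets were left out of 24123. Values were taken as log2(signal + 16), and 1 mean per stage was fitted to all samples with limma 3.58.1 (lmFit, eBayes, R 4.3.3), with Benjamini-Hochberg adjustment over 23999 probe sets per comparison and a threshold of 0.05. The procedure was tested on simulated data with independent samples, so shared dams and differences in sample quality were no part of that test. Python 3.11.15, pandas 2.3.3 and matplotlib 3.10.9 drew tables and figures. The 6 genes and all lists were chosen with earlier results of these data known. Named were these genes, up to 4 genes per list with the largest called change between neighbouring stages, and 3 genes per member of highest Pearson r. Alternatives were quantile normalization, centring, pseudocounts 1 and 64, no dimmer probe sets, only the stages compared, trended and robust eBayes, array weights, no samples of low GAPDH ratio and leaving out each sample. Leaving out the 28 dpn samples of high bioD, and list counts without samples of low GAPDH ratio, were added after seeing the data. No genome positions or sequences are reported here.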

Additional observations from a re-analysis of the deposited data

Results flagged for a closer look

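GPX3 at 188 dpn had 1 sample far from the others: replicate 1 read 5368, and the next highest of the 6 read 1443. Of the 28 groups looked at, formed by 7 probe sets and 4 stages, this was the only 1 with a sample so far apart, where about 1 in 20 groups would be by chance. The same sample held the highest MT3 signal of its stage (629) and high kidney tubule genes.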

How the results depend on the processing

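No paired analysis was made, since no label links samples across stages. Animals could not be blocked by dam, because no label gives the dam. The number of probe sets called stayed within 1.5 times its value in each comparison, except that 28 against 1 dpn gave 2453 in place of 4121 with only these stages fitted. Called changes of the 6 genes turned sign in no alternative, but uncalled differences near 0 did. For 188 against 28 dpn, GPX1 was -0.06 after quantile normalization and -0.07 to 0.12 with single samples left out, and SOD2 was 0.10 after centring and -0.07 to 0.11 with single samples left out. For 28 against 1 dpn, GPX2 was -0.15 with array weights, -0.33 without samples of low GAPDH ratio, -0.82 without the 28 dpn samples of high bioD and -0.28 to 0.51 with single samples left out, and GPX3 was -0.33 to 0.02 with single samples left out. For 188 against 1 dpn, GCLM was -0.06 without samples of low GAPDH ratio. The dimmer GCLM probe set, called nowhere, also turned sign. Against 94 dpc it gave -0.05 at 1 dpn without samples of low GAPDH ratio, 0.01, 0.19 and 0.02 at 28 dpn after quantile normalization, centring and a pseudocount of 64, and -0.01 at 188 dpn with a pseudocount of 1. Without samples of low GAPDH ratio it gave 0.04 for 28 and 0.07 for 188 against 1 dpn. With single samples left out it ran from -0.56 to 0.01 for 28 against 1 dpn, -0.20 to 0.26 for 188 against 28 dpn, -0.21 to 0.23 for 28 dpn against 94 dpc, -0.53 to 0.04 for 188 against 1 dpn and -0.16 to 0.26 for 188 dpn against 94 dpc. The cause was not tested.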
